A study of Homo sapiens with 3 samples.

Results

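The genes examined were 10 of human alcohol and aldehyde oxidation: the alcohol dehydrogenase genes ADH1A, ADH1B, ADH1C, ADH4, ADH5 and ADH6 and the aldehyde dehydrogenase genes ALDH1A1, ALDH2, ALDH3A1 and ALDH3A2. Members were all probes whose symbol in the platform annotation is one of these 10 names. They numbered 12 of 24460 probes and stood for 9 of 17559 named genes. No probe carried the symbol ADH1A, which is not analysed here. Of the 9 genes, 8 were above background on all 3 arrays, by a cut that many negative control spots also passed. ADH1B was above it only on the control array.

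The cells were HepG2, an established human hepatocellular carcinoma line, collected 72 h after transfection with 10 nM siRNA. One group received an siRNA that targets villin (gene VIL1), which bundles actin in microvilli. Another received an siRNA that targets PTK7, a catalytically inactive receptor kinase of Wnt signalling, and the third a negative control siRNA. The labels name a pair of villin siRNAs without saying which one was used. Each group had 1 one-colour array of Cy5-labelled amplified RNA. The differences therefore have no replicate check and no test, and all values describe these arrays only. Because bulk RNA was measured, fewer cells with a transcript and less transcript per cell cannot be told apart.

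Alcohol dehydrogenases oxidise alcohols to aldehydes with NAD as the electron acceptor, and aldehyde dehydrogenases oxidise the aldehydes to acids. In liver the class I enzymes (ADH1A, ADH1B and ADH1C) and mitochondrial ALDH2 carry most of the oxidation of ethanol through acetaldehyde to acetate. Other members handle retinol and retinal, formaldehyde bound to glutathione, and fatty aldehydes. Hepatocytes are the main site of ADH1 and ADH4 expression, and ADH5 is made in nearly every cell type.

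VIL1 had deposited intensities of 129 on the villin siRNA array, 1084 on the PTK7-labelled array and 924 on the control array. PTK7 had 25, 12 and 14 on these arrays in turn, so its single dim probe did not separate the PTK7-labelled array from the control array, and that array is called the PTK7-labelled array below. Deposited intensities are the authors' values, in which each array has a median of 25. Between 90.2% and 92.1% of all probes were above background on the 3 arrays. The cut was 2 standard deviations of the blank spots above their mean. The median of 96 negative control spots lay at 3.12, 2.09 and 1.82 of these on the villin siRNA, PTK7-labelled and control arrays. Passing the cut therefore does not by itself show a transcript. Precision is limited by there being 3 arrays. Of 9 hepatocyte markers, 8 had a probe and all 8 were above background on the 3 arrays, with ALB, the albumin gene, at 8938, 12932 and 14421 on the villin siRNA, PTK7-labelled and control arrays. HNF4A had no named probe.

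In the RefSeq table of build GRCh38.p14, ADH5, ADH4, ADH6, ADH1A, ADH1B and ADH1C follow one another in this order on chromosome 4 with no other protein-coding gene between them. The stretches of 250 bases before the RefSeq start are given for ADH4, ADH6, ADH5 and ALDH1A1. Before scaling by slide position, ADH4 and ADH6 had the lowest log2 differences between the villin siRNA array and the control array. ADH5, by its brighter probe, and ALDH1A1 lay at -0.25 and 0.04. With every array scaled locally to the spots around each probe, ADH4 and ADH5 lay close together, at -0.36 and -0.33. The dimmer ADH5 probe lay above 0 both ways, at 0.17 and 0.05. ADH5 is therefore no unchanged contrast to ADH4, and a link between promoter sequence and these differences was not tested. All stretches are written 5′ to 3′ on the strand of the gene. Capitals mark matches, on both strands, to the TATA box TATAAA, the CCAAT box CCAAT and the GC box GGGCGG.
ADH4 promoter (chr4:99144298-99144547, minus strand): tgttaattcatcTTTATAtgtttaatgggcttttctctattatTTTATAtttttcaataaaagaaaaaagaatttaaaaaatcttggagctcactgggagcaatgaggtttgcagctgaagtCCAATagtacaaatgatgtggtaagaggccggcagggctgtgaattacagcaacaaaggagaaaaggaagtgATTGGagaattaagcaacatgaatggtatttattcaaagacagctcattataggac
ADH6 promoter (chr4:99219247-99219496, minus strand): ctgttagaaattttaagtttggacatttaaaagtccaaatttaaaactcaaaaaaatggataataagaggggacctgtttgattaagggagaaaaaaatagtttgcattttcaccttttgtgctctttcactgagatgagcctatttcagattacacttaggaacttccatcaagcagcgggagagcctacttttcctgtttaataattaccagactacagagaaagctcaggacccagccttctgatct
ADH5 promoter (chr4:99088789-99089038, minus strand): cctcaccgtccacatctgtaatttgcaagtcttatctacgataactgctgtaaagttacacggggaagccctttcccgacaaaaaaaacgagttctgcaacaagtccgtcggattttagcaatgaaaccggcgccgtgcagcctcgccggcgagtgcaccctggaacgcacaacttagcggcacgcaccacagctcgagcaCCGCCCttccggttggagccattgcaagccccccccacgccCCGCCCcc
ALDH1A1 promoter (chr9:72953054-72953303, minus strand): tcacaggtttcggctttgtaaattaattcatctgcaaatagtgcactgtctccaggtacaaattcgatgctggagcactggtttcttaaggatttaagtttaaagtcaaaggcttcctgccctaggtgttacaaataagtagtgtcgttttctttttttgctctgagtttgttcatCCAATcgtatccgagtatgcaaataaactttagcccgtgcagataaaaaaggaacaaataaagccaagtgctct
The ADH5 stretch had a G and C content of 58% and 21 CpG dinucleotides, while ADH4 and ADH6 had 34% and 36.4% with 1 CpG each. ALDH1A1 had 38.4% and 6 CpG. Over all 35116 promoters of the table the median content was 58%, with a median of 11 CpG. ADH5 had 2 GC-box matches, a motif found in 42.6% of all promoters. ADH4 had 2 TATA-box matches (10.7% of all promoters hold one). They began 238 and 207 bases before the RefSeq start, and both were on the opposite strand. ADH4 also had 2 CCAAT matches (32% hold one), ALDH1A1 had 1 CCAAT match, and ADH6 had none of the 3 motifs. A match describes letters in this window and shows no binding. Of the 10 genes, 8 were matched in the promoter table, all but ALDH2 and ALDH3A1.

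ADH1B and ADH1C encode class I enzymes, which oxidise ethanol in adult liver. ADH1B had a deposited intensity of 2 on the control array and no value on the villin siRNA array or the PTK7-labelled array. Its spot lay -0.19 and 0.72 standard deviations (SDs) of the blank spots from their mean on the villin siRNA array and the PTK7-labelled array, against 2.46 on the control array. ADH1C had deposited intensities of 2, 3 and 2 on the villin siRNA, PTK7-labelled and control arrays. Both genes were thus at or near background, where differences between arrays were not detectable. Among 96 negative control spots per array, the highest lay 10.2, 5.57 and 14.7 blank SDs above the blank mean on the villin siRNA, PTK7-labelled and control arrays. ADH1C lay at 3.96, 5.61 and 3.30, inside that range on the villin siRNA and control arrays and level with its upper end on the PTK7-labelled array. On the control array ADH1B, at 2.46, also lay inside the range of the negative control spots. ADH1A, ADH1B and ADH1C are closely related in sequence, and whether a probe also binds the transcript of a related gene was not tested.

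ADH4, a class II alcohol dehydrogenase of liver that acts on ethanol at high concentration and on retinol, had deposited intensities of 124 on the villin siRNA array, 165 on the PTK7-labelled array and 215 on the control array. The control array was highest and the villin siRNA array lowest. After background correction and quantile normalisation the log2 levels were 7.79, 8.14 and 8.47. Against the control array, ADH4 was thus 1.60-fold lower after villin siRNA (log2 difference -0.67), and 34 of 15907 genes were as low or lower. On the PTK7-labelled array the log2 difference against the control array was -0.32. The spots around ADH4 on the slide moved with it: the median log2 difference of the surrounding window was -0.42 for the villin siRNA array and -0.62 for the PTK7-labelled array against the control array. With every array scaled locally to the spots around each probe (position scaling), ADH4 lay at -0.36 with villin siRNA and at 0.15 on the PTK7-labelled array, so the first difference was smaller and the second turned its direction.

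ADH6, a hepatic alcohol dehydrogenase known mainly from its transcript, had 2 probes. The brighter one had deposited intensities of 43 on the villin siRNA array, 72 on the PTK7-labelled array and 81 on the control array. The dimmer one had 14, 19 and 20. Both probes were lowest on the villin siRNA array, and both had close values on the other arrays. Against the control array, the brighter probe was 1.52-fold lower after villin siRNA (log2 difference -0.61), and the dimmer one had a log2 difference of -0.20. The setting adds 50 units to every signal, which shrinks the differences of dim probes, and in the deposited intensities the control array exceeded the villin siRNA array 1.88-fold and 1.43-fold for the brighter and dimmer probe. On the PTK7-labelled array the log2 differences against the control array were -0.12 and -0.02. The window around the brighter spot had a median log2 difference of -0.004 for villin siRNA against control, and position scaling left the ADH6 difference at -0.62.

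ADH5, the class III enzyme that oxidises the glutathione adduct of formaldehyde and reduces S-nitrosoglutathione, had 2 probes that disagreed. The brighter probe had deposited intensities of 1143 on the villin siRNA array, 1422 on the PTK7-labelled array and 1418 on the control array. The dimmer probe had 139, 126 and 115, with the villin siRNA array highest where the brighter probe had it lowest. Their log2 differences for villin siRNA against control were -0.25 and 0.17, and for the PTK7-labelled array against control 0.04 and 0.08. Position scaling gave -0.33 and 0.05 for the villin siRNA array. No direction is therefore given for ADH5 as a gene.

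ALDH2, the mitochondrial enzyme that clears acetaldehyde, had deposited intensities of 1489 on the villin siRNA array, 1733 on the PTK7-labelled array and 2164 on the control array. In these intensities it followed the same order of arrays as ADH4, an order that ADH4 did not keep after position scaling. Against the control array it was 1.38-fold lower after villin siRNA (log2 difference -0.46), and 230 of 15907 genes were as low or lower. On the PTK7-labelled array the difference was -0.25. The surrounding spots had median differences of 0.11 and 0.01, and after position scaling ALDH2 lay at -0.61 (1.53-fold lower) and -0.29. It was then among the 39 lowest genes of the villin siRNA array, where 0.283% of all genes were at least 1.5-fold lower.

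ALDH3A2, the fatty aldehyde dehydrogenase of the endoplasmic reticulum whose loss causes Sjögren-Larsson syndrome, had deposited intensities of 1076 on the villin siRNA array, 1118 on the PTK7-labelled array and 1556 on the control array. The villin siRNA and PTK7-labelled arrays lay close together and the control array above them. The log2 differences against the control array were -0.49 and -0.44. The window around its spot had median differences of -0.54 and -0.50, and after position scaling ALDH3A2 lay at 0.02 and 0.04. In the deposited values, which like the window medians are not quantile normalised, the ALDH3A2 log2 differences were -0.53 and -0.48. The spots around it on the slide thus carried a difference of similar size, and almost none was left after scaling.

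ALDH1A1, a cytosolic enzyme that makes retinoic acid from retinal and is used as a marker of progenitor cells, differed little. Its deposited intensities were 506 on the villin siRNA array, 541 on the PTK7-labelled array and 492 on the control array, with log2 differences of 0.04 and 0.14 against the control array. Position scaling gave 0.02 and 0.14. ALDH3A1, which oxidises aromatic and medium-chain aldehydes and belongs to the battery of genes induced through the Ah receptor, was dim on both of its 2 probes. They had deposited intensities of 17 and 22 with villin siRNA, 20 and 14 on the PTK7-labelled array, and 14 and 15 on the control array. The probes had different highest arrays, and their log2 differences lay between -0.02 and 0.16 against the control array.

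**Figure D1:**
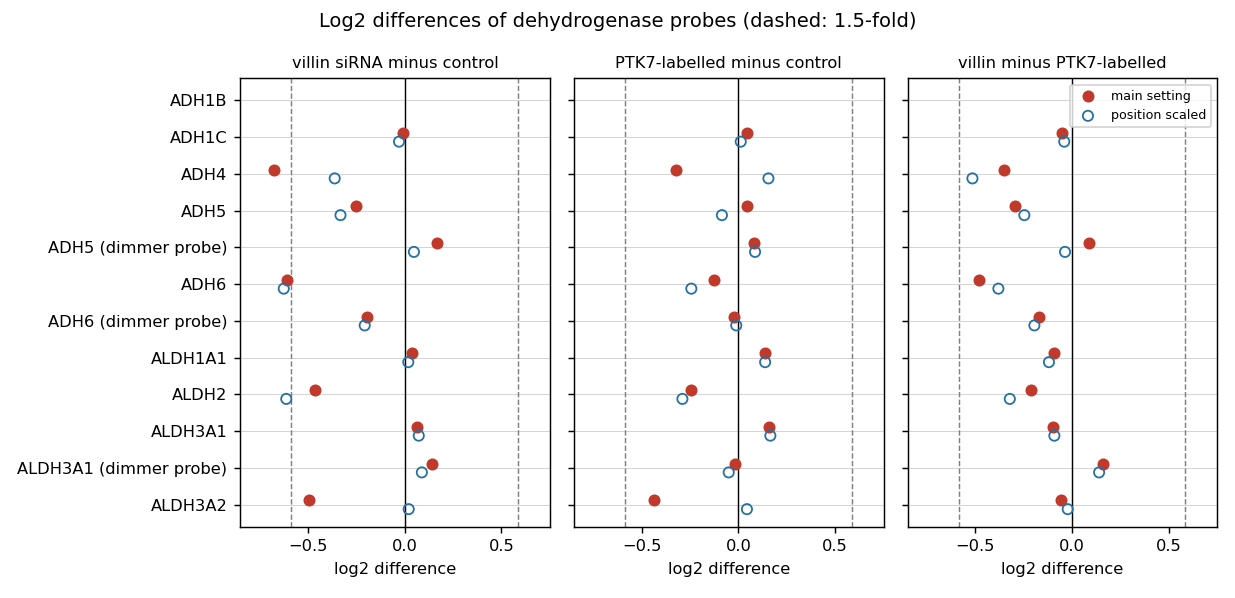
Log2 difference of each dehydrogenase probe in the 3 comparisons, with the main setting (filled) and after position scaling (open); dashed lines mark 1.5-fold, and probes are drawn where both arrays were above background. On the villin siRNA array ADH6 stays at -0.61 and -0.62, ALDH2 goes to -0.61 with scaling, ADH4 to -0.36, and ALDH3A2 leaves -0.49 for 0.02.

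Across the villin siRNA array and the control array, 2 of the 8 dehydrogenase genes above background, ADH4 and ADH6, were at least 1.5-fold lower and none was higher. Among all 15907 genes 0.522% were at least 1.5-fold lower and 1.59% at least 1.5-fold higher, 2.11% in all. ALDH2 and ALDH3A2 fell short of 1.5-fold but, with ADH4 and ADH6, lay below the 2.5 percentile of all genes, at -0.40. Of the 8 genes, 6 had a log2 difference below 0, against 54.8% of all genes, and their median was -0.36, against -0.01 over all genes. ADH1C, at -0.01 and close to background, is one of the 6. ADH5 is another, counted by its brighter probe, while its dimmer probe lay at 0.17. After position scaling ADH6 and ALDH2 were at least 1.5-fold lower, as 0.283% of all genes were. Then 5 of 8 were below 0 and the median was -0.18, against -0.008 over all genes. None of the members reached 2-fold, as 0.302% of all genes did.

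On the PTK7-labelled array none of the 8 genes was 1.5-fold from the control array, where 1.03% of all 15775 genes were, 0.216% lower and 0.811% higher. The members split evenly, 4 below 0 and 4 above 0, against 52.9% of all genes below 0, with a median of -0.04 (0.028 after position scaling). ALDH3A2, at -0.44, was the lowest of them before position scaling, and ALDH2, at -0.29, after it. This comparison shares the control array with the first.

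Compared directly, the villin siRNA array was lower than the PTK7-labelled array for all 8 genes by the brighter probe, where 52.5% of 15947 genes were below 0. None was 1.5-fold apart, against 0.665% of all genes (0.169% lower and 0.495% higher). The lowest were ADH6 at -0.48, ADH4 at -0.35, ADH5 at -0.29 and ALDH2 at -0.21, and the other members lay between -0.10 and -0.05. After position scaling all 8 were again below 0, with ADH4 at -0.52 and ADH6 at -0.38, where the median over all genes was -0.002. Both counts include ADH1C, which is close to background. With the background column 5 of the 8 were below 0 and 3 above. With the mean of a gene's probes 7 were below 0. The dimmer probe of ADH5 and the second probe of ALDH3A1 went the other way, at 0.09 and 0.16 before scaling.

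**Figure D2:**
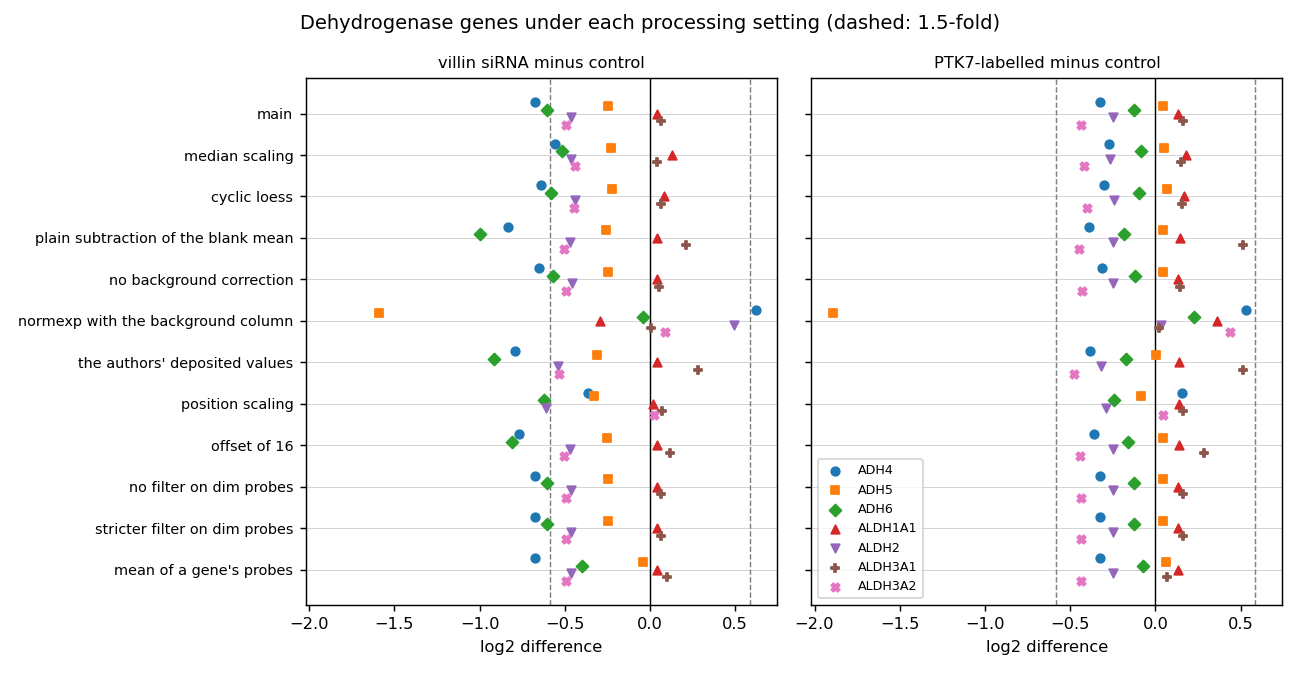
Log2 difference of 7 dehydrogenase genes under the main setting and 11 alternatives, for the villin siRNA array (left) and the PTK7-labelled array (right) against the control array; dashed lines mark 1.5-fold. On the villin siRNA array ADH6 lies below 0 in each setting drawn, and ADH4 and ALDH2 do in each except normexp with the background column, where they lie at 0.62 and 0.49 and ADH6 at -0.04. The filter settings repeat the main values, as does the mean of probes for genes with a single probe.

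None of the remaining genes of both families that could be compared differed by 1.5-fold in any of the 3 comparisons with the main setting. Among all genes only 2.11%, 1.03% and 0.665% did (villin siRNA against control, PTK7-labelled against control, villin siRNA against PTK7-labelled). A short list would therefore often hold none. ADHFE1, ALDH1A2 and ALDH8A1 could not be compared. Of 15 other aldehyde dehydrogenase genes, 13 were above background on all 3 arrays. Their median log2 difference was -0.01 for villin siRNA and 0.03 on the PTK7-labelled array, against the control array. ALDH9A1, which oxidises aminobutyraldehyde and betaine aldehyde, was furthest from 0, with deposited intensities of 312, 252 and 384 on the villin siRNA, PTK7-labelled and control arrays. Its log2 differences of -0.27 and -0.54 against the control array became 0.05 and 0.03 after position scaling. ALDH3B1, at 0.33 on the PTK7-labelled array, was the highest of the list and lay at 0.14 after scaling. ADH7, a class IV enzyme of stomach and oesophagus, had intensities of 4, 5 and 2, and ADHFE1 was not above background.

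Enzymes next to the dehydrogenases that could be compared also stayed within 1.5-fold, as did all but 2.11%, 1.03% and 0.665% of all genes in the 3 comparisons. For 6 other enzymes of ethanol and acetate the medians were 0.02 for villin siRNA and -0.04 on the PTK7-labelled array, with the acetyl-CoA synthetase gene ACSS3 furthest from 0 at 0.21 and 0.31 (-0.10 and -0.02 after position scaling). CYP2E1, the ethanol-inducible cytochrome, had intensities of only 5, 3 and 6 on the villin siRNA, PTK7-labelled and control arrays. Of 23 retinoid genes, 18 were above background on the villin siRNA and control arrays, with a median of -0.04. RXRA, the partner of the retinoic acid receptors, was lowest at -0.53 (-0.42 after scaling), with intensities of 80, 101 and 128, and RBP4, the plasma carrier of retinol, lay at -0.33 (-0.36 after scaling). On the PTK7-labelled array the list's furthest gene was RDH11, a retinal reductase, at 0.33 (0.07 after scaling). Among 12 genes of formaldehyde, glutathione and fatty aldehyde handling, 9 were above background, with medians of 0.03 and -0.10. The sphingosine phosphate lyase gene SGPL1 was furthest from 0 on the villin siRNA array, at 0.29 (0.30 after scaling), and the glutathione synthetase gene GSS on the PTK7-labelled array, at -0.33 (0.05 after scaling). For betaine, folate and amino acid catabolism the medians were -0.10 and -0.01, with HIBCH, an enzyme of valine breakdown, at -0.18 and the sarcosine dehydrogenase gene SARDH at -0.23 as the furthest genes of the 2 comparisons.

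Among the lists of related enzymes and regulators, 2 held genes past 1.5-fold against the control array, both on the villin siRNA array. Of 9 measured genes of the Ah receptor and NRF2 list, whose responses are also known for ALDH3A1, 2 were at least 1.5-fold lower than on the control array, against 0.522% of all genes. HMOX1, the haem oxygenase gene, lay at -0.68, and at -0.65 after position scaling, with intensities of 567, 689 and 954 on the villin siRNA, PTK7-labelled and control arrays. With normexp and the background column, however, HMOX1 turned to 0.46. NQO1, a quinone reductase, lay at -0.59 with 4554, 6835 and 7335, and at -0.35 after scaling, short of 1.5-fold. It lay at -3.60 with the background column. Between the villin siRNA array and the PTK7-labelled array NQO1 was the only gene of these lists past 1.5-fold, at -0.60, and after scaling it lay at -0.37. CYP1A1, the main Ah receptor target, was higher by 0.56 and 0.57 on the villin siRNA array and the PTK7-labelled array against the control array, and by 0.25 and 0.32 after scaling. ALDH3A1 itself lay at 0.06 and 0.16.

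Of 14 hepatocyte regulators of alcohol dehydrogenase genes, 11 had a probe, and which gene passed 1.5-fold depended on position scaling: CEBPA did before it and NR1H4 after it. CEBPA, a liver-enriched transcription factor known to act on ADH promoters, had intensities of 541 on the villin siRNA array, 806 on the PTK7-labelled array and 858 on the control array. Its log2 difference against the control array was -0.59 for villin siRNA, and -0.52 after position scaling, but turned to 0.73 with the background column. NR1H4, the bile acid receptor gene, had intensities of 81, 135 and 134 on the villin siRNA, PTK7-labelled and control arrays. It lay at -0.57 for villin siRNA against control, just short of 1.5-fold, at -0.76 after scaling and at -0.96 with the background column. Against the PTK7-labelled array it lay at -0.57, and at -0.60 after scaling. On the PTK7-labelled array CEBPA lay at -0.05 against control, and CEBPB was the furthest of the list from 0 at -0.31. The median of the regulators was -0.09 for villin siRNA and -0.02 on the PTK7-labelled array. No relation between these regulators and the dehydrogenases can be tested over 3 arrays.

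**Figure D3:**
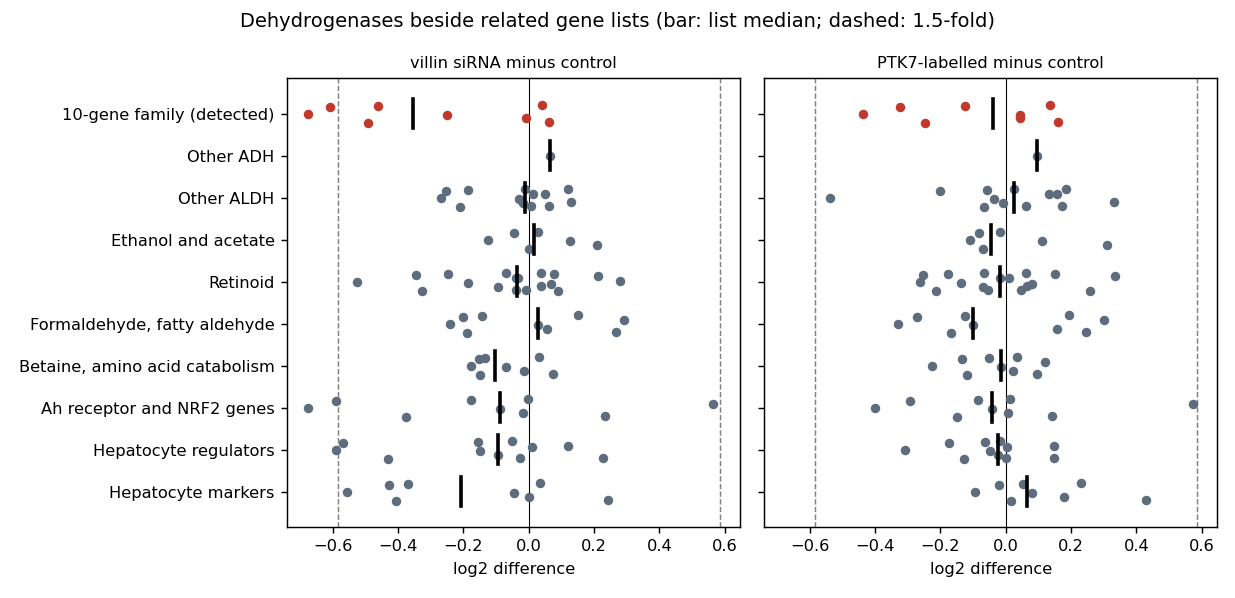
Log2 differences against the control array of the 8 dehydrogenase genes above background (top row) and of the related lists, 1 point per gene, with the list median as a bar and dashed lines at 1.5-fold. On the villin siRNA array the family's median lies at -0.36 and that of hepatocyte markers at -0.21, while the other lists drawn have medians between -0.10 and 0.07; markers of other cell types are not drawn.

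None of the 8 measured hepatocyte markers was 1.5-fold apart in any comparison, where 2.11%, 1.03% and 0.665% of all genes were. The deposited intensities of the 8 measured markers summed to 36557 on the villin siRNA array, 47628 on the PTK7-labelled array and 50996 on the control array. ALB and TF, the transferrin gene, made up most of each sum. This sum and those below also depend on the factor that each array was divided by, 1.6, 1.34 and 1.26 in that order. Of the 8 markers, 5 had a log2 difference below 0 on the villin siRNA array (54.8% of all genes), with a median of -0.21. ALB lay at -0.56 (-0.38 after position scaling), the transferrin gene TF at -0.43 and AFP, the fetal albumin homologue, at -0.37, while APOB lay at 0.00 and TTR at 0.24. Against the PTK7-labelled array, 7 of 8 markers were below 0 (52.5% of all genes), with a median of -0.34. Their part in the dehydrogenase differences was not tested. Leukocyte markers summed to 837, 690 and 539 on the villin siRNA, PTK7-labelled and control arrays. Of these sums LYZ, past 1.5-fold, gave 455, 383 and 226, and CD68 gave 346, 272 and 281. PTPRC, the defining leukocyte gene, was above background only on the control array, with an intensity of 2. Fibroblast markers summed to 159, 150 and 107, of which DCN gave 91, 85 and 79, while COL1A1 had 2 on each array. PDGFRB, at 60, 60 and 22, was the 1 fibroblast marker past 1.5-fold. It lay at 0.67 and 0.71 against the control array, and at 0.46 and 0.38 after position scaling, short of 1.5-fold. Endothelial markers summed to 50, 47 and 55 and squamous markers to 335, 308 and 333, with each difference that could be taken within 1.5-fold. Of 5 endothelial markers 3 were compared, since PECAM1 had no probe and TEK was above background only on the control array. The only erythroid marker with a probe, ALAS2, had 4, 3 and 3.

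Genes with differences most like those of ADH4 and ADH6 were sought among 15696 other genes with the main setting. Likeness was the distance in the plane of both log2 differences against the control array. In that setting ADH4 and ADH6 were the lowest members for villin siRNA. After position scaling ALDH2, at -0.611, lay below ADH4, at -0.361. For ADH4 the 3 nearest were TTK, RECQL4 and CDC14B, at distances of 0.02, with TTK at -0.67 and -0.30 on the villin siRNA array and the PTK7-labelled array. For ADH6 they were DONSON, ATAD2 and H4C9, at distances of 0.02, 0.03 and 0.04, with DONSON at -0.59 and -0.12. Within a distance of 0.1 there were 31 genes for ADH4 and 18 for ADH6. A likeness over 3 arrays that share 1 control is a description of position in this plane only. Scaling by slide position moved ADH4 in the plane to -0.361 for villin siRNA and 0.155 for the PTK7-labelled array. Nearest genes were not sought after scaling, so those named for ADH4 hold for the main setting only.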

How the data were processed

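Total RNA of HepG2 cells was amplified, labelled with Cy5 and hybridised to 1 array per group, per the labels' protocols. Per the file headers, the scanner files give spot medians without background subtraction (27456 spots: 24460 probes, 2680 blanks, the rest controls). The authors deposited whole-number intensities: the scanner value above the mean of the blanks, over a factor of 1.6, 1.34 and 1.26 on the villin siRNA, PTK7-labelled and control arrays, as recomputed within 0.711 units. It leaves probes at background without a value. The tools behind the table are not given in the sources used here.

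The background level was a trimmed mean of the blank spots (5% off each end). Signals were corrected with normexp (offset 50) in limma 3.58.1 under R 4.3.3, quantile normalised and put on the log2 scale, and differences were taken between arrays. A probe was above background if its spot exceeded the blank mean by 2 SDs and was not flagged by the scanner. A gene with several probes was represented by the brightest, and genes were counted where both arrays were above background. Symbols of the platform annotation were updated through the RefSeq table of GRCh38.p14, which served for names and gene order: 20236 probes had 1 symbol, none had several and 4224 were unnamed. Position scaling divided each signal by the local median deviation of its array among the spots of its block within 11 columns and 5 rows. Probes of 1 gene were ordered by brightness only to choose the one that stands for it. Levels of different genes were set together only in the sums of cell type markers and in calling probes dim or bright.

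No spread between cultures can be estimated with 1 array per group, so thresholds are of size (1.5-fold). The members, lists and alternatives were chosen with earlier results of these data known. The text names all members, list genes past 1.5-fold or else the gene furthest from 0, genes nearest in pattern to 2 members, and cell type markers; further list genes (RBP4, CYP1A1, CYP2E1, ALDH3B1, ADHFE1, USF1, NR1H4) were added after their values were seen. The procedure was tested on simulated arrays in which only bright probes were changed and no effect of slide position was set. That test therefore does not cover changes of dim probes or differences that follow position. Python 3.11.15 with numpy 2.4.6, pandas 2.3.3 and matplotlib 3.10.9 was used.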

Additional observations from a re-analysis of the deposited data

How the results depend on the processing

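No paired analysis was possible because each group had 1 array. The limits are those of 3 arrays, of an offset that shrinks the differences of dim probes, and of differences that follow the position on the slide. For the villin siRNA array against the control array, 2 of 8 genes were at least 1.5-fold apart. This count became 0 with median scaling or a 2-fold threshold and 1 with cyclic loess, without background correction or with the mean of a gene's probes. It stayed at 2 with plain subtraction, the deposited values, position scaling, an offset of 16 and either change of the filter on dim probes, although position scaling gave ADH6 and ALDH2 in place of ADH4 and ADH6. With the background column the 2 were ADH5, lower, and ADH4, for which the direction turned to 0.62. The share of all genes 1.5-fold apart was 13.3% with plain subtraction, 15.7% with the deposited values and 7.05% with the background column, against 2.11%. With the other settings at 1.5-fold it lay between 1.19% and 3.55%. The median of the members, -0.36, became -0.18 with position scaling, -0.22 with the mean of probes and -0.002 with the background column. Of 11 alternatives, 10 kept ADH4 below 0, 11 ADH6, 10 ALDH2 and 9 ALDH3A2. Not all of these could turn a direction. Either change of the filter reuses the main values of a gene. The mean of probes equals the main value for ADH4, ALDH2 and ALDH3A2, which have a single probe each. For the PTK7-labelled array the count of 0 became 1 with plain subtraction or the deposited values (ADH1C, near background) and with the background column (ADH5). There 12.7%, 15.6% and 8.6% of all genes were 1.5-fold apart in that order, against 1.03%. The members' median of -0.04 on the PTK7-labelled array turned to 0.028 with position scaling and 0.13 with the background column. It was -0.069 and -0.083 with plain subtraction and the deposited values, -0.124 with the stricter filter and -0.014 with the mean of probes. Between villin siRNA and PTK7-labelled arrays the count of 0 became 2 with plain subtraction or the deposited values. It became 1 with an offset of 16 or the background column. The shares of all genes were 6.05%, 9.32%, 1.1% and 7.36% in that order, against 0.665%. ADH1C, near background, was 1 of the 2 with plain subtraction and with the deposited values. The median of -0.16 became -0.30, -0.28 and -0.016 with plain subtraction, the deposited values and the background column, -0.098 without the filter and -0.099 with the mean of probes. The medians named are those that turned direction or differed by more than 1.5 times. The cause of these changes was not tested.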

Other observations

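The promoter stretches of ADH1B and ADH1C, both at or near background here, each held the letters CACGTG, the E box bound by USF factors, beginning 69 bases before the RefSeq start, and a CCAAT-box match beginning 53 bases before it. The E-box letters are found in 6.34% of all 35116 promoters of the table, and ADH1A, ADH4, ADH5, ADH6 and ALDH1A1 had none in this window. ALDH3A2, which was bright on all 3 arrays, has 2 stretches in the table, of which 1 held these letters, beginning 47 bases before its start. USF1, measured by 1 dim probe, had deposited intensities of 5, 5 and 6 on the villin siRNA, PTK7-labelled and control arrays.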
